A study of Mus musculus with 8 samples.

Results

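The genes described here are 10 markers of endothelial cells, which line blood vessels, and of the endocardium, the endothelial layer that lines the chambers of the heart: Pecam1, Cdh5, Kdr, Tek, Emcn, Flt1, Tie1, Nfatc1, Plvap and Egfl7. They were taken by symbol from the 49315 Ensembl genes of each count table, and all 10 were found and had enough counts to be tested. RNA was sequenced from cultured cells labelled as cardiomyocytes, isolated from the hearts of C57/Bl6 mouse embryos of both sexes, pooled, at embryonic day 12.5. One group of 4 libraries was kept in control medium and the other group of 4 in medium with 10 µM simvastatin, which inhibits HMG-CoA reductase, the enzyme that makes mevalonate. The comparison addresses how simvastatin alters expression in these cultures. Neither the time in simvastatin nor any step to remove non-muscle cells is given in the sources used here, and the labels name no separate cultures or litters behind the replicates, so p-values measure no more than how far these libraries lie apart, and that may be technical.

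Endothelial cells depend on signals through receptor tyrosine kinases at their surface. VEGF acts through the receptors encoded by Kdr and Flt1, and the angiopoietins act through Tek (TIE2), with Tie1 as its partner receptor. Pecam1 and Cdh5 encode adhesion proteins of the junctions between endothelial cells, Emcn encodes the sialomucin endomucin on their surface, and Plvap forms the diaphragms of their fenestrae and caveolae. Egfl7 encodes a secreted matrix protein, and Nfatc1 a transcription factor that in the embryonic heart marks the endocardium and is needed for the valves.

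The 10 genes did not move as one group. With simvastatin Emcn fell to 21.4% of its control level and Tek rose 2.64-fold, while Pecam1 and Cdh5, the general endothelial junction markers, did not pass the test and had groups that overlapped. Of the 10, 2 rose (Tek and Nfatc1) and 1 fell (Emcn) by the quasi-likelihood test of edgeR with Benjamini-Hochberg adjustment over all genes at 0.05. Over the 16126 genes tested, 17.4% were called in either direction, 7.79% higher and 9.61% lower. The median log2 fold change of the 10 was -0.22, against 0.01 over all tested genes, and 6 of the 10 had a value below 0. The log2 fold change is that of simvastatin over control throughout. Levels compared between groups are CPM, a count as a share of its library, scaled by TMM factors, unless given in TPM, which is explained below.

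**Figure D1:**
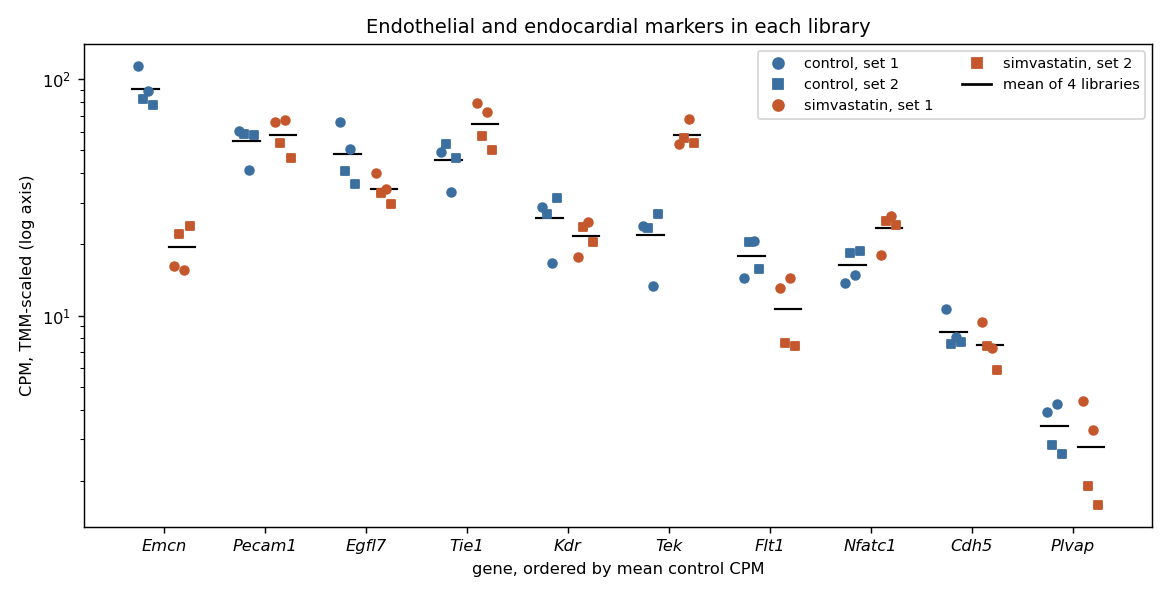
TMM-scaled CPM (log axis) of the 10 markers in each of the 4 control and 4 simvastatin libraries, with a black line at each group's mean and circles and squares for the 2 sets named in the file headers. Emcn lies between 78.2 and 114 CPM in controls and between 15.6 and 24.0 CPM with simvastatin, Tek between 13.3 and 27.0 and between 53.4 and 68.0 CPM, and the groups of the other 8 genes overlap.

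Totals ran from 30474586 to 35215640 counts per library. The column headers of the tables name 2 sets, set 1 with replicates 1 and 3 of each group and set 2 with replicates 2 and 4. Each header also carries a number, 1 for replicates 1 and 2 and 2 for replicates 3 and 4, whose meaning is not given. Replicates 2 and 4 had the most similar counts in each group (chi-square per degree of freedom 21.56 in controls, 16.54 with simvastatin). Replicates 1 and 3 came next with simvastatin (23.91) but not in controls (64.58, against 63.08 for replicates 1 and 2). Since no source used here says what the sets were, each set is also given alone. The cells carried the RNA of heart muscle: Tnnt2, which encodes cardiac troponin T, stood at 3749 TPM, the count per exonic length scaled to the same sum in each library, in controls. The summed level of 8 cardiomyocyte markers ran from 59280 to 67900 TPM in controls and from 73540 to 77590 TPM with simvastatin. Of the 8 only Myh7 passed the test, and it rose (1.15 in log2, edgeR adjusted p = 0.00255). Actc1, with means of 29450 and 35120 TPM, and Myl7, with 19690 and 24390 TPM, did not pass (edgeR adjusted p = 0.227 and 0.206). The summed level of the 10 endothelial markers ran from 140.1 to 199.5 TPM in controls and from 133.0 to 169.9 TPM with simvastatin, so the ranges overlapped. Every marker was counted in every library, from 48 counts of Plvap to 4004 counts of Emcn. In such bulk samples fewer cells of a type and less RNA per cell cannot be told apart.

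Emcn had the largest change of the 10 (chromosome 3, 137341067 to 137432185, plus strand, GRCm38, protein coding, 5409 exonic bases; no exon of another gene overlaps it). Control replicates 1 to 4 held 114, 82.7, 89.3 and 78.2 CPM, and simvastatin replicates 1 to 4 held 16.2, 22.1, 15.6 and 24.0 CPM. The lowest control was therefore well above the highest simvastatin library. The means were 91.1 ± 16.0 CPM in controls and 19.5 ± 4.22 CPM with simvastatin (SD of 4 libraries each). The fitted log2 fold change was -2.22 ± 0.18 (standard error; adjusted p = 3.83e-05 in edgeR), which lies in the lowest 0.8% of all tested genes. Its change in log2 was -2.69 in set 1 alone and -1.80 in set 2 alone. The difference between the sets, 0.87 on the log2 scale, did not pass an interaction test over all genes (edgeR adjusted p = 0.116; 0.0558% of genes passed). Without any one library the log2 fold change stayed between -2.34 and -2.10, and the call held in all 18 alternative fits.

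Tek, which encodes the angiopoietin receptor TIE2 (chromosome 4, 94739289 to 94874976, plus strand, 4712 exonic bases, no overlapping exon), changed in the other direction. Controls held 24.1, 23.5, 13.3 and 27.0 CPM in replicates 1 to 4, and simvastatin libraries 53.4, 56.4, 68.0 and 53.8 CPM. Every simvastatin library was well above the highest control, so the groups did not overlap. Mean levels were 22.0 ± 5.97 CPM in controls and 57.9 ± 6.87 CPM with simvastatin (SD of 4 libraries each). The fit gave a log2 fold change of 1.40 ± 0.20 (standard error; adjusted p = 0.000848 in edgeR), or 2.64-fold with a 95% interval of 1.95 to 3.57. It was 1.68 in set 1 alone and 1.13 in set 2 alone. Control replicate 3 was the lowest control, and without it the log2 fold change was still 1.22 (edgeR adjusted p = 0.000301). The call held in all 18 alternative fits. Over all genes tested, all 4 simvastatin libraries lay above all 4 controls for 11.0% and below them for 12.1%, and Tek and Emcn were the 1 member in each of these classes.

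Because Emcn and Tek moved in opposite directions, the stretches of DNA before their start sites are shown, each 250 bases up to the RefSeq start on build GRCm38.p6. Capitals mark the core recognised by ETS factors, the family of Fli1 and Ets1 that acts on many endothelial genes, searched as AGGAA or CGGAA on both strands. Promoter windows of 6 of the 10 genes were in the table used, Egfl7, Emcn, Tek, Tie1, Kdr and Flt1, with Pecam1, Cdh5 and Plvap not matched and Nfatc1 not used here. The first is chr3:137340828-137341077 and the second chr4:94739039-94739288, both on the plus strand, and the end of the first reaches just past the start of Emcn in the GENCODE annotation.
Emcn: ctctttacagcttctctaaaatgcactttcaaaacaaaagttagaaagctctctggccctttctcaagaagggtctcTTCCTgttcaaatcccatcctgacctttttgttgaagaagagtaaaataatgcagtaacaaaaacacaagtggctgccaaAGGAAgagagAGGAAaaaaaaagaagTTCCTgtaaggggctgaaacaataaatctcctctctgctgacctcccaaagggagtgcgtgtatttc
Tek: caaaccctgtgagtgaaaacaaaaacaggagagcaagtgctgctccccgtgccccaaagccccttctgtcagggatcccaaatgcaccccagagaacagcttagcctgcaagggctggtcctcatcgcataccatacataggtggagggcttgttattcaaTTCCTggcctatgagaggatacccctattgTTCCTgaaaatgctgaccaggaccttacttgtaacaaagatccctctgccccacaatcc
The Emcn window held 4 matches and the Tek window 2. Of the other markers, Egfl7 held 4, 1 and 0 at its different starts, Tie1 3, Flt1 2 and Kdr 1. Tie1 had a positive log2 fold change, and Flt1, with as many matches as Tek, a negative one. Of 32851 windows of the same length before the starts in the table, 71.4% held at least 1 match, 38.0% at least 2 and 6.1% at least 4. The Tek window also held 1 match to CACCC, the core bound by Krüppel-like factors, as did 52.0% of all windows with 1 or more, and the Emcn window held 0. Neither window held GGAATG, the core of the TEAD motif, which 12.6% of windows held. A match to GGAATG can overlap one to AGGAA or CGGAA. A match is a run of letters and not a bound site, and a window without one says nothing about the factor.

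Tie1, the partner of TIE2 (chromosome 4, 118471191 to 118490061, minus strand, 4917 exonic bases), held 49.2, 53.4, 33.4 and 46.3 CPM in controls and 79.1, 57.4, 72.4 and 50.1 CPM with simvastatin. Simvastatin replicate 4 lay within the control range and the other simvastatin libraries above it. The log2 fold change was 0.51 ± 0.18 (SE), with an edgeR adjusted p = 0.0788, and the 95% interval of the fold ran from 1.08 to 1.87. It was 0.86 in set 1 alone and 0.11 in set 2 alone, a difference that did not pass the interaction test (edgeR adjusted p = 0.269). Tie1 passed with the Wald test of DESeq2 (adjusted p = 0.043) and without simvastatin replicate 4 (edgeR adjusted p = 0.0401). Within each library the ratio of Tek to Tie1 in TPM ran from 0.416 to 0.609 in controls and from 0.705 to 1.12 with simvastatin, without overlap. This ratio and those below were chosen after the values were seen and carry no test.

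Neither VEGF receptor gene among the 10 passed the test. Kdr, which encodes VEGFR2, the main signalling receptor for VEGF (chromosome 5, 75932827 to 75978458, minus strand, 9030 exonic bases), held 28.9, 26.9, 16.7 and 31.4 CPM in controls and 17.7, 23.8, 24.9 and 20.4 CPM with simvastatin. Every simvastatin value lay between the lowest and the highest control. In log2 the change was -0.26 ± 0.19 (standard error; adjusted p = 0.43 in edgeR), with a 95% interval of the fold from 0.621 to 1.13. Flt1, which encodes VEGFR1, a receptor that also binds VEGF as a soluble decoy (chromosome 5, 147561604 to 147726011, minus strand, 13504 exonic bases), held 14.4, 20.4, 20.7 and 15.7 CPM in controls and 13.1, 7.66, 14.5 and 7.41 CPM with simvastatin. The groups of Flt1 touched: simvastatin replicate 3 stood just above control replicate 1.

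Flt1 missed the threshold with all libraries, with a log2 fold change of -0.74 ± 0.24 (standard error; adjusted p = 0.0607 in edgeR) and a 95% interval of the fold from 0.414 to 0.868. It passed in 7 of 18 alternative fits, among them DESeq2 (adjusted p = 0.0191), limma-voom (adjusted p = 0.0437), set as a term (edgeR adjusted p = 0.027) and the fits without control replicate 1 (edgeR adjusted p = 0.0495) or simvastatin replicate 3 (edgeR adjusted p = 0.037). The 2 simvastatin libraries of set 2 were the low ones. The log2 fold change was -0.37 in set 1 alone (edgeR adjusted p = 0.423) and -1.26 in set 2 alone (edgeR adjusted p = 0.00154). That difference, -0.92, had an edgeR adjusted p = 0.251 in the interaction test.

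The junction markers did not pass the test. Pecam1 (chromosome 11, 106654217 to 106750628, minus strand, 6228 exonic bases) held 60.6, 58.9, 41.4 and 58.2 CPM in controls and 65.8, 53.7, 67.6 and 46.5 CPM with simvastatin. Its log2 fold change was 0.09 ± 0.16 (standard error; adjusted p = 0.762 in edgeR), and the 95% interval of the fold, 0.837 to 1.36, holds 1. The sign turned without control replicate 3 (-0.02) and in set 2 alone (-0.22, against 0.37 in set 1 alone). Cdh5, VE-cadherin (chromosome 8, 104101625 to 104144511, plus strand, 4203 exonic bases), held 10.6, 7.58, 8.13 and 7.70 CPM in controls and 9.36, 7.40, 7.26 and 5.89 CPM with simvastatin. Of the 4 simvastatin libraries 1 lay within the control range and 3 below it, and the log2 fold change was -0.19 ± 0.18 (standard error; adjusted p = 0.567 in edgeR; 95% interval of the fold from 0.663 to 1.17).

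Plvap was the gene with the fewest counts (chromosome 8, 71497765 to 71511752, minus strand, 1987 exonic bases), and its precision was the lowest of the 10. It held 3.90, 2.84, 4.24 and 2.59 CPM in controls and 4.35, 1.90, 3.29 and 1.58 CPM with simvastatin, higher in set 1 than in set 2 in both groups. Its change in log2 was -0.29 ± 0.33 (standard error; adjusted p = 0.624 in edgeR), and the 95% interval of the fold ran from 0.496 to 1.35.

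Egfl7 (chromosome 2, 26580014 to 26593120, plus strand, 3581 exonic bases) held 65.7, 40.9, 50.5 and 36.1 CPM in controls and 40.1, 32.9, 34.3 and 29.6 CPM with simvastatin. Simvastatin replicate 1 exceeded control replicate 4, so the groups overlapped, but the other simvastatin libraries were below all controls. The log2 fold change was -0.50 ± 0.18 (standard error; adjusted p = 0.0911 in edgeR; 95% interval of the fold from 0.536 to 0.937). It passed with set as a term (edgeR adjusted p = 0.0279) and without control replicate 4 (edgeR adjusted p = 0.0397). Exons of Gm20532, of Agpat2 and of the microRNA genes Mir126a and Mir126b overlap those of Egfl7 by 264, 64, 73 and 58 bases, and no source used here says whether reads were counted by strand, so its reads could be divided differently.

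Nfatc1, the endocardial transcription factor (chromosome 18, 80606205 to 80713071, minus strand, 7433 exonic bases), held 13.7, 18.4, 14.8 and 18.8 CPM in controls and 18.1, 25.0, 26.3 and 24.1 CPM with simvastatin. Simvastatin replicate 1 lay within the control range and the other simvastatin libraries above it. In log2 the change was 0.51 ± 0.16 (standard error; adjusted p = 0.0493 in edgeR; 95% interval of the fold from 1.12 to 1.82), just inside the threshold. The call rested on nearly every library: it held without simvastatin replicate 1 (edgeR adjusted p = 0.0214) and ended without any of the other 7, with adjusted p from 0.0519 without control replicate 4 to 0.143 without simvastatin replicate 3. It also ended with limma-voom (adjusted p = 0.0506), with no filter on low counts (edgeR adjusted p = 0.0524), and in set 1 alone (log2 fold change 0.62) and set 2 alone (0.40).

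**Figure D2:**
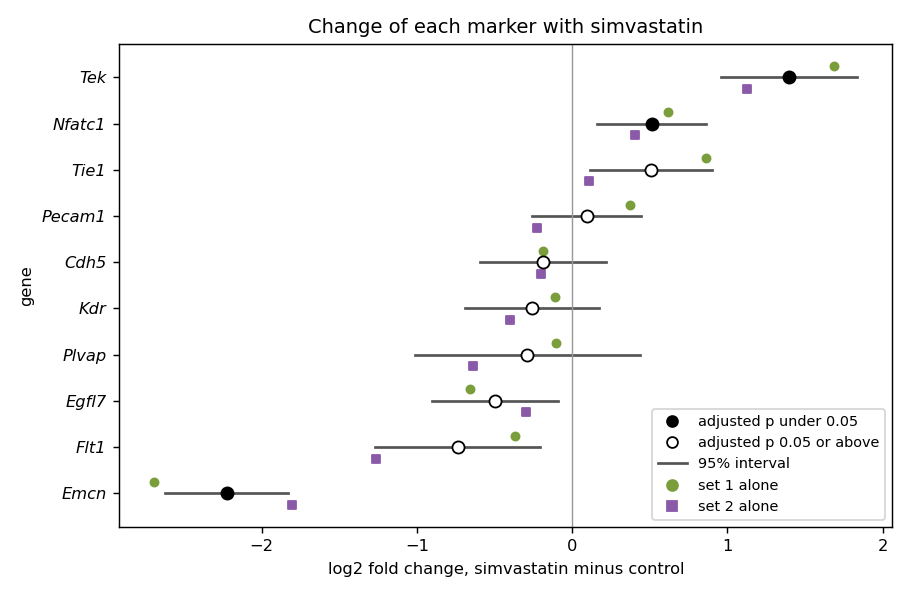
Log2 fold change of each marker (simvastatin minus control, 4 libraries per group) with its 95% interval, filled where the edgeR adjusted p is under 0.05, and the values of set 1 alone and set 2 alone. Emcn at -2.22 and Tek at 1.40 lie far from 0 in both sets, and Pecam1 at 0.09 has values on either side of 0 in the 2 sets.

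Levels per length can be compared between genes in TPM, and the order of the 10 differed between the groups. In controls Emcn stood first at 43.8 ± 8.31 TPM, followed by Egfl7 (35.1 ± 9.84), Tie1 (24.2 ± 4.96), Pecam1 (22.9 ± 4.34), Tek (12.2 ± 3.60), Kdr (7.52 ± 2.05), Nfatc1 (5.74 ± 0.949), Cdh5 (5.27 ± 0.983), Plvap (4.42 ± 0.977) and Flt1 (3.41 ± 0.514; SD, n = 4 each). Of these neighbours, Pecam1 and Tek had ranges that did not overlap, while each other pair overlapped. With simvastatin Tie1 (35.3 ± 7.13 TPM) and Tek (32.9 ± 4.06) stood first and second and could not be ordered, since Tie1 was the higher in 2 of 4 libraries. Egfl7 (25.6 ± 3.18) and Pecam1 (25.1 ± 4.30) came next with overlapping ranges, and Emcn stood at 9.65 ± 2.11 TPM, below every Pecam1 value. Nfatc1 (8.44 ± 1.37), Kdr (6.45 ± 1.03), Cdh5 (4.77 ± 0.892), Plvap (3.74 ± 1.70) and Flt1 (2.12 ± 0.722) followed, each overlapping the next. Emcn was above Nfatc1 in 3 of the 4 simvastatin libraries, so their order was not resolved. Emcn lay above Tek in controls and below it with simvastatin, with ranges that did not overlap in either group.

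**Figure D3:**
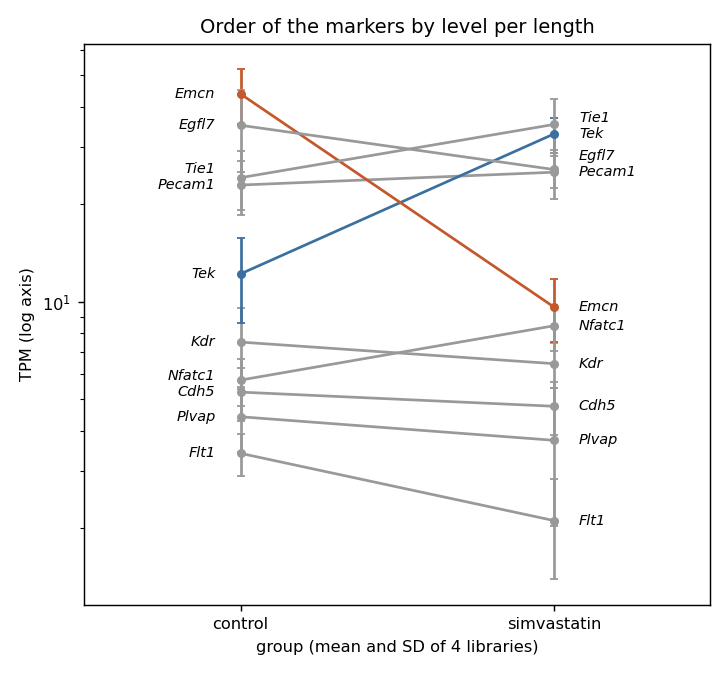
Mean TPM (log axis) of the 10 markers in control and simvastatin libraries with the SD of 4 libraries, 1 line per gene, Emcn in orange and Tek in blue. Emcn starts at 43.8 and ends at 9.65 TPM, crossing Tek, which starts at 12.2 and ends at 32.9 TPM.

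Set against Pecam1 in the same library, Emcn ran from 1.55 to 2.49 times the Pecam1 level (TPM ratio) in controls and from 0.265 to 0.595 with simvastatin. Tek ran from 0.426 to 0.614 and from 1.07 to 1.53, and Tie1 from 1.01 to 1.15 and from 1.35 to 1.52. For Flt1 the ratio ran from 0.110 to 0.230 in controls and from 0.0658 to 0.0988 with simvastatin. These 4 ratios did not overlap between groups, and those of Cdh5, Kdr, Nfatc1, Plvap and Egfl7 did. In CPM the groups of Tie1 and Flt1 overlapped, and neither gene passed the test. How often a ratio to Pecam1 separates the groups over all genes was not computed, so the count of 4 has nothing to be set against. The Emcn level was 2.52 to 5.83 times that of Tek in controls and 0.200 to 0.389 times with simvastatin.

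The other endothelial genes were read from lists of surface and junction proteins, transcription factors, endocardial genes, genes of arteries, veins and lymphatics, and ligands. The counts of each list stand beside the shares over all genes tested, 7.79% called higher and 9.61% lower. Of 19 further surface and junction genes, 6 rose and 2 fell, and the list median was 0.17 in log2. The count of 6 ran from 3 to 7 and that of 2 from 1 to 3 when any one library was left out, lowest for the 6 without simvastatin replicate 3. In set 1 alone 3 rose and 0 fell, and in set 2 alone 3 rose and 1 fell. Jam2, which encodes a junctional adhesion molecule, rose from 8.46 ± 1.04 to 21.9 ± 3.24 CPM (SD of 4 libraries, as below; log2 fold change 1.37, edgeR adjusted p = 0.000193). Adgrl4, an adhesion receptor of endothelial cells, rose from 10.4 ± 2.68 to 25.9 ± 1.39 CPM (1.31 in log2, adjusted p = 0.000636 in edgeR). Clec14a, a C-type lectin of endothelial cells, rose with 0.77, and Cd93, another lectin-like surface protein, fell with -0.53. For these 4 genes, picked by smallest p, the groups did not overlap and the calls held without any one library. Clec14a lost its call with the replicate block, in set 1 alone and in set 2 alone (edgeR adjusted p = 0.0796 and 0.0585 in the sets). Cd93 lost it in set 1 alone (edgeR adjusted p = 0.146). Of the 19 genes, 3 were lower and 5 higher without overlap, against 12.1% and 11.0% over all genes tested.

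Of 8 further genes that mark or act in the endocardium, 4 fell and 1 rose, and the list median was -0.96 in log2 (-1.11 in set 1, -0.78 in set 2). Npr3, the natriuretic peptide clearance receptor and an endocardial marker, held 3.65, 3.37, 3.29 and 4.47 CPM in controls and 0.693, 0.777, 0.903 and 0.790 CPM with simvastatin, a fall with a log2 fold change of -2.22 ± 0.21 (standard error; adjusted p = 8.26e-05 in edgeR). Nrg1, the neuregulin that endocardium sends to the myocardium, fell from 12.7 ± 4.12 to 3.36 ± 1.14 CPM (-1.92 in log2, adjusted p = 0.00147 in edgeR). The Notch ligand gene Dll4 fell from between 4.37 and 6.35 CPM in controls to between 0.194 and 1.70 CPM (-2.60 in log2, adjusted p = 0.00321 in edgeR). Cgnl1, which encodes a junction protein, rose from 46.5 ± 5.58 to 91.7 ± 9.89 CPM (0.98 in log2, adjusted p = 0.000383 in edgeR). The groups of these 4 genes did not overlap and their calls held without any one library. They were picked by smallest p, so this adds little. Of the 8 genes, 5 were lower and 1 higher without overlap, against 12.1% and 11.0% over all genes tested. The fourth gene that fell was Bmp6, a BMP ligand gene named after its values were seen, at -0.95 in log2 (adjusted p = 0.0471 in edgeR). It kept its call in 1 of the 8 fits without a library, that without control replicate 2, with adjusted p up to 0.123 in the others, and lost it with limma-voom, with library totals and in each set alone. Nrg1, Dll4 and Npr3 thus had lower levels where Nfatc1 had a higher one, and the summed level of the 8 genes in TPM overlapped between groups (28.1 to 36.0 in controls, 31.0 to 41.6 with simvastatin). Cgnl1 was the most abundant of them, with means of 15.4 and 31.4 TPM.

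**Figure D4:**
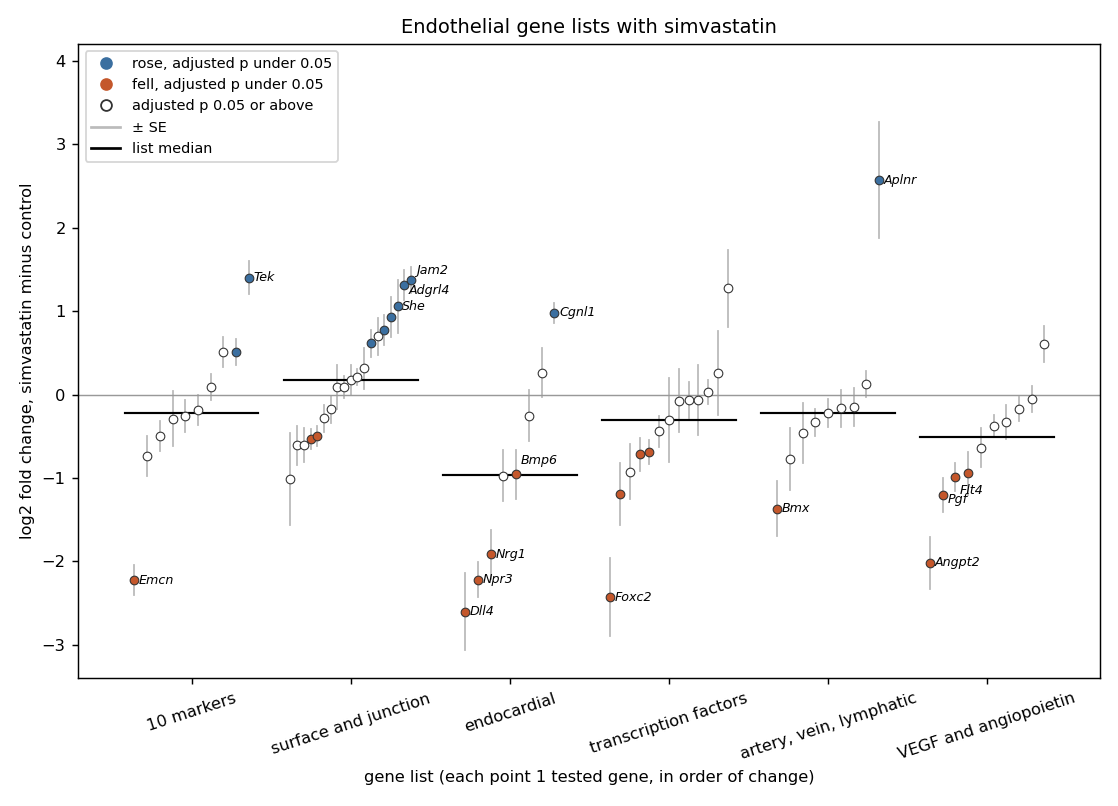
Log2 fold change (simvastatin minus control, ± SE) of every tested gene of the 10 markers and of 5 further lists, ordered within each list, with a black line at the list median and colour where the edgeR adjusted p is under 0.05. The endocardial list has its median at -0.96 and the surface and junction list at 0.17, each with genes on both sides of 0.

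Of 16 endothelial transcription factor genes 13 were tested, of which 4 fell, with a median of -0.31. The count of 4 ran from 2, without control replicate 4 or simvastatin replicate 2, to 4, and was 0 in set 1 alone and 4 in set 2 alone. The 4 of set 2 were not the same genes. Fli1 passed in neither set alone (edgeR adjusted p = 0.0623 in both), and 1 gene not called with all libraries took its place. In set 1 alone 1 gene rose. Foxc2 fell from 0.649 ± 0.107 to 0.119 ± 0.0822 CPM (-2.43 in log2, adjusted p = 0.00484 in edgeR), a gene of few counts. The ETS factor genes Fli1 and Ets1 fell with log2 fold changes of -0.69 and -0.72 (edgeR adjusted p = 0.00706 and 0.0294). The call of Ets1 ended on leaving out control replicate 3, control replicate 4, simvastatin replicate 2 or simvastatin replicate 3, with adjusted p up to 0.0775. Gata2, at -1.20 (edgeR adjusted p = 0.0499), kept its call in 2 of the 8 fits without a library, those without control replicate 1 or simvastatin replicate 3, and the adjusted p was up to 0.127 in the others. Etv2, a factor of the first endothelial progenitors, had 1 count in 1 library and 0 in the others.

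Among ligands and co-receptors of VEGF and angiopoietin signalling 10 of 11 genes were tested, of which 4 fell, with a median of -0.50. Angpt2, a ligand of TIE2 that mostly opposes Angpt1, held 10.8, 7.96, 10.9 and 5.28 CPM in controls and 1.23, 2.36, 1.97 and 3.09 CPM with simvastatin. That is a log2 fold change of -2.01 ± 0.31 (standard error; adjusted p = 0.00145 in edgeR), without overlap. Angpt1, the activating ligand, named after its values were seen, held 14.4 to 29.9 CPM in controls and 25.1 to 40.2 CPM with simvastatin (0.60 in log2, adjusted p = 0.0854 in edgeR). The TPM ratio of Angpt1 to Angpt2 in a library ran from 1.15 to 4.91 in controls and from 9.84 to 17.7 with simvastatin. Pgf, placental growth factor, a ligand of VEGFR1, fell from between 5.86 and 10.5 CPM to between 3.33 and 4.15 CPM (-1.20 in log2, adjusted p = 0.00234 in edgeR). Flt4, the lymphatic VEGF receptor, fell from 11.8 ± 0.968 to 5.95 ± 1.15 CPM (-0.98 in log2, adjusted p = 0.00255 in edgeR), and Vegfd fell with -0.95 (edgeR adjusted p = 0.0318), a call that held without control replicate 2 or simvastatin replicate 4 and ended without any of the other 6 libraries, with adjusted p up to 0.0879.

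Of 10 genes of arteries, veins and lymphatics 9 were tested, with 1 that rose and 1 that fell and a median of -0.22. These counts are close to the shares over all genes tested, 7.79% higher and 9.61% lower. Bmx, a kinase gene of arterial endothelium and endocardium, fell from 3.74 ± 1.17 to 1.44 ± 0.475 CPM (-1.37 in log2, adjusted p = 0.0157 in edgeR). Aplnr, the apelin receptor gene, went from 0 to 0.399 CPM in controls to 0.403 to 1.94 CPM with simvastatin (edgeR adjusted p = 0.0283), and its call ended on leaving out control replicate 2, control replicate 3, simvastatin replicate 1 or simvastatin replicate 4. Of 8 NFAT and calcineurin genes 1 fell, also close to the share over all genes. Rcan1, a calcineurin inhibitor and target of NFAT, went from 219.9 ± 9.96 to 102 ± 11.6 CPM (-1.10 in log2, adjusted p = 6.22e-05 in edgeR), while Nfatc2 and Nfatc3 had values of 0.34 and 0.07 that did not pass. Of 10 genes of valve mesenchyme, the cells that leave the endocardium to form the cushions, 9 were tested, with 2 that rose and 2 that fell. Snai1, a repressor of epithelial junction genes, fell with -2.51 and Tgfb2 with -0.53 (edgeR adjusted p = 0.00236 and 0.00312). Snai2 rose with 0.69, a call that held without control replicate 1 and ended without any of the other 7 libraries, with adjusted p up to 0.103. Tgfbr3 rose with 0.62, a call that held without control replicate 4 or simvastatin replicate 1 and ended without any of the other 6 libraries, with adjusted p up to 0.122.

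Markers of other cell types moved as well, and their part in the results above was not tested. Over all genes tested, 7.79% were called higher and 9.61% lower. Of 7 smooth muscle and pericyte markers 5 fell and 1 rose, and their summed level went from between 3613 and 5108 TPM in controls to between 604.0 and 913.8 TPM with simvastatin. Most of that sum was Acta2, with means of 3760 TPM in controls and 437.5 TPM with simvastatin. The gene that rose was Cspg4 (1.06 in log2, edgeR adjusted p = 0.000996). Of 8 fibroblast markers 3 fell, a count that was 0 without control replicate 1 or 3 or without simvastatin replicate 1 or 3, the libraries of set 1. In set 1 alone 6 fell, and in set 2 alone 3 rose and 0 fell. In summed level the control libraries of set 1, at 861.7 and 898.8 TPM, stood above those of set 2, at 430.1 and 436.4 TPM, with 525.6 to 603.0 TPM under simvastatin. Of 7 epicardial markers 2 fell and 1 rose (summed 286.0 to 405.7 and 409.2 to 441.8 TPM). The number that fell was 1 when any library of set 1 was left out, which ended the call of Aldh1a2. In set 1 alone 3 fell and 0 rose, and in set 2 alone 1 fell and 2 rose.

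Blood cells carry some of the 10 markers, among them Pecam1. Of 8 macrophage and leukocyte markers 7 were tested, of which 3 fell (665.1 to 821.7 TPM in controls, 580.0 to 768.8 TPM with simvastatin), 2 without control replicate 2, 1 in set 1 alone and 3 in set 2 alone. Ptprc, the leukocyte antigen CD45, stood at 2.34 ± 0.714 and 2.60 ± 0.456 CPM. Of 6 megakaryocyte and platelet markers 5 were tested and 0 passed in edgeR (69.7 to 95.1 and 36.3 to 77.5 TPM), with 1 at an unadjusted p under 0.05, 0 in DESeq2 and 1 lower in limma-voom. In set 1 alone 2 fell, and in set 2 alone 1 fell. Ppbp held 4.35 to 7.40 CPM in controls and 0.161 to 3.82 CPM with simvastatin, without overlap (-1.89 in log2, edgeR adjusted p = 0.0608). Its fall passed in edgeR with set as a term (adjusted p = 0.0165) and in each set alone (adjusted p = 0.0205 in both). Itga2b, which megakaryocytes share with early blood progenitors, stood at 10.9 ± 2.18 and 9.46 ± 2.12 CPM. Of 7 erythroid markers 5 were tested and 3 rose (25.4 to 40.4 and 56.4 to 122.7 TPM), with Hbb-y, the embryonic beta-like globin, going from 2.92 ± 0.702 to 9.94 ± 4.02 CPM. The count of 3 ran from 1, without control replicate 3, to 4 on leaving out 1 library, and was 2 in set 1 alone and 1 in set 2 alone. Hbb-y kept its call in all 8 fits without a library, and Hbb-bt in 3 of the 8. None of the markers in these lists was at 0 in every library. The globin genes share sequence, so their counts are uncertain.

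The genes most like the mean of the 10 markers were found by correlation with the mean of their standardised log2 CPM, as a description over 8 libraries that share treatment and set. The highest Pearson r was that of Notch2, a Notch receptor gene, at 0.94, followed by Azin2 (0.86), Accs (0.85), Sirt1 (0.85), Adgrg6 (0.84) and Dhdh (0.83). On deviations from the group means the order was Gpr182 (0.97), Notch2 (0.96), Gdf9 (0.95), Adamtsl2 (0.94), Ednrb (0.94) and Notch1 (0.94). They are the top of a search over the tested genes of at least 1 CPM. How high r runs by chance in such a search was not computed, so r marks no gene as endothelial. Emcn and Tek, which moved in opposite directions, both enter the mean of the 10 markers. On deviations from the group means, pairs of the 10 ran from r = -0.837 (Emcn and Flt1) to 0.965 (Pecam1 and Tie1). The mean is therefore not a profile that all 10 share.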

How the data were processed

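RNA-seq was deposited as 1 table of whole-number gene counts per library, 4 control and 4 simvastatin. Per the submitters' processing notes, the authors used Trimmomatic 0.36, STAR 2.5.2b and featureCounts of Subread 1.5.2, with GRCm38 (mm10), to make the deposited counts. Libraries held 30474586 to 35215640 counts, and no pair within a group agreed within sampling noise. Symbols came from GENCODE M21 by Ensembl ID, which matched 99.3% of IDs.

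Genes were filtered by filterByExpr (16126 of 49315 kept) and tested in edgeR 4.0.16 (R 4.3.3) with TMM factors, the quasi-likelihood test, treatment as the sole term and Benjamini-Hochberg adjustment at 0.05. Standard errors were the size of the log2 fold change divided by the square root of its quasi-likelihood F statistic. The 95% intervals were built from them with the t distribution. TPM were computed from counts and the exonic lengths in the files. Alternatives were DESeq2 1.42.0, limma-voom 3.58.1, other scalings and filters, set terms, a replicate block and leaving out each library. The fit was tested on simulated data.

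The markers and lists were chosen with earlier results of these data known. Named were all 10 markers, up to 4 genes per list with the smallest p, and the cell type markers Tnnt2, Ptprc and Itga2b. Also named were the 6 genes of at least 1 CPM most correlated with the marker mean. Angpt1, Bmp6, Etv2 and Col1a2 were named after their values were seen.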

Additional observations from a re-analysis of the deposited data

Results flagged for a closer look

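Among 132 groups of 4 libraries (66 genes in each treatment), 4 held a library far from the other 3. By chance about 5% of groups would, so the count of 4 is no higher than chance gives. Control replicate 3 was lowest for Pecam1, at 41.4 CPM where its group otherwise held 58.2 to 60.6, and for Cgnl1, at 38.2 CPM against 48.7 to 50.0. Simvastatin replicate 2 was highest for Pgf, at 4.15 CPM against 3.33 to 3.45. Simvastatin replicate 1 was lowest for Adgre1, a macrophage marker, at 11.7 CPM against 16.8 to 17.3.

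The response to simvastatin differed between the sets for 3 of the named genes, by an interaction term in edgeR with adjustment over all genes. Over all genes tested 0.0558% passed. The log2 fold change in set 2 minus that in set 1 was 1.518 for Col3a1 (edgeR adjusted p = 0.0277), a collagen gene of fibroblasts, with -1.61 in set 1 and -0.07 in set 2. It was 2.437 for Tcf21 (edgeR adjusted p = 0.0351), a fibroblast and epicardial factor gene. It was 1.211 for Acta2 (edgeR adjusted p = 0.0379), smooth muscle actin, with -3.80 in set 1 and -2.57 in set 2. None of the 3 is among the 10 endothelial markers. Col1a2, a further gene of the fibroblast list, was named after its values were seen. It also passed (edgeR adjusted p = 0.0351), with -0.90 in set 1 and 0.50 in set 2.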

How the results depend on the processing

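The calls of Emcn (lower) and Tek (higher) held in all 18 alternatives. The other counts turned on Nfatc1, Flt1, Tie1 and Egfl7, with edgeR adjusted p from 0.0493 to 0.0911 with all libraries. Flt1 was far from the threshold in set 2 alone, at -1.26 in log2 (edgeR adjusted p = 0.00154). Of the 10 markers 2 were called higher. That count was 3 with the DESeq2 Wald test, which added Tie1, 1 with limma-voom, 1 with a replicate block, 1 in set 1 alone, 1 in set 2 alone and 1 to 2 without any one library. The count called lower, 1, was 2 with DESeq2, 2 with limma-voom, 3 with no filter beyond 1 count, 2 with the replicate block, 3 with set as a term, 2 in set 2 alone and 1 to 2 without any one library. The cause was not tested. Same-numbered libraries had correlations of deviations from -0.162 to 0.133, against -0.357 to 0.362 for the other pairs. Of 4 controls 0 correlated best with their own number. A pairing by number was thus not seen, and 4 libraries per group are too few to exclude one. The replicate block ended the call of Nfatc1 (edgeR adjusted p = 0.0554), added Egfl7 (0.0491) and left 2131 genes called over the whole table. Of all genes 2805 were called, against 1627 in set 1 alone, 2975 in set 2 alone, 3362 with set as a term, 3534 with DESeq2 and 2002 to 2462 without any one library. The log2 fold change of Pecam1, 0.09, turned to -0.224 in set 2 alone and ran from -0.016 to 0.186 without any one library. With 48 counts in its lowest library, Plvap had the widest interval of the 10, and a change of the size seen in Egfl7 lies inside it.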
